A study of Mus musculus with 7 samples.

Results

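The Hox cluster genes are homeobox transcription factor genes that lie in the clusters Hoxa, Hoxb, Hoxc and Hoxd. They were taken as every probe set whose annotated symbol was Hoxa, Hoxb, Hoxc or Hoxd followed by a paralogue number, which gave 37 of the 22690 probe sets and 31 of the 12393 genes with a symbol of their own on the array. The Hoxa cluster had 12 probe sets for 9 genes, Hoxb 10 for 9, Hoxc 8 for 6 and Hoxd 7 for 7. Hoxa3, Hoxa4, Hoxa9 and Hoxb4 had 2 probe sets each and Hoxc6 had 3. Members with paralogue numbers 1 to 3 are called anterior here, 4 to 8 central and 9 to 13 posterior.

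RNA came from whole embryos of the inbred FVB strain at E10.5, with 1 embryo on each of 7 Affymetrix 430A 2.0 arrays. The 2 control embryos were from the normal pregnancy of an untreated dam, and the 5 diabetes-exposed embryos were littermates from a dam made diabetic with streptozotocin, a toxin of the insulin-producing beta cells. Dams were treated at 7 to 9 weeks of age, and those kept had blood glucose above 250 mg/dl. Of the exposed embryos 3 had no identified malformation and 2 had a neural tube defect (NTD). Since each condition was 1 litter, diabetes and litter cannot be told apart, and p-values measure only the spread between littermates. Transcripts of the sex chromosomes, given below, also set both controls apart from most exposed embryos.

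Hox proteins give cells their position along the head-to-tail axis, and the genes are switched on in the order in which they lie in a cluster. Anterior members pattern the hindbrain and branchial arches, central members the neck and thorax, and posterior members the lumbar and sacral trunk, the limbs and the tail. Retinoic acid, CDX proteins and FGF and WNT signals start their expression, Polycomb and Trithorax proteins maintain its limits, and PBX and MEIS proteins bind DNA together with HOX proteins.

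No Hox gene was called different between exposed and control embryos. The 4 members with the smallest p-values were Hoxb1, Hoxd9 and Hoxa11, higher in exposed embryos, and Hoxa9, lower in them, and their promoters are printed to show the regulatory sequence next to each gene. They come from RefSeq on GRCm38.p6 and run from 250 bases before the annotated start to 50 after it. Capitals mark any of the motifs TGATNNAT, the joint PBX-HOX site, AGGTCA, a retinoid receptor half-site, TTTATG, a CDX site, TATAAA, known as the TATA box, CCAAT, the box of that name, and ACGTG, the core of the hypoxia response element, on either strand.
Hoxb1 promoter, chr11:96365508-96365807, plus strand: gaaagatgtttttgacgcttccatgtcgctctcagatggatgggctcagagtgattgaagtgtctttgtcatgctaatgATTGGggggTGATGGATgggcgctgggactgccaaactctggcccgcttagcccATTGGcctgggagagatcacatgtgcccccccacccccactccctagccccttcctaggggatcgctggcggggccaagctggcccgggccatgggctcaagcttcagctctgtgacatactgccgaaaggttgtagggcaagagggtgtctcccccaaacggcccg
Hoxd9 promoter, chr2:74697513-74697812, plus strand: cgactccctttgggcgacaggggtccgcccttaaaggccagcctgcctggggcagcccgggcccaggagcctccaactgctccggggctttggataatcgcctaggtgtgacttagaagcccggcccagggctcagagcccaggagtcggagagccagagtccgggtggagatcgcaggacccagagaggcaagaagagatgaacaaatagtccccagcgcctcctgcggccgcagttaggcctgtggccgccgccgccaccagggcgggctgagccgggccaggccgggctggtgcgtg
Hoxa11 promoter, chr6:52245761-52246060, minus strand: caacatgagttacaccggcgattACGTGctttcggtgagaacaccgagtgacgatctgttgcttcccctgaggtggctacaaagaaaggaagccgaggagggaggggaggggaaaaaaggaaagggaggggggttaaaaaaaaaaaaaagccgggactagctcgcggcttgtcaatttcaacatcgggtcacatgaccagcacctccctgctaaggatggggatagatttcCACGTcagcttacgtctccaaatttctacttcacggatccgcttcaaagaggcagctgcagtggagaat
Hoxa9 promoter, chr6:52227321-52227620, minus strand: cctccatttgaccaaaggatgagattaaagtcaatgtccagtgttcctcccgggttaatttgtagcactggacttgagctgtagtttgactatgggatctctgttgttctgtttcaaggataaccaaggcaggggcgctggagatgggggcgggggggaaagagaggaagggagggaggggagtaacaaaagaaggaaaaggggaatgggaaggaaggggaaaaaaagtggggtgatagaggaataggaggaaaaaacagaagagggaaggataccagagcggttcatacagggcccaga
The Hoxb1 promoter held TGATGGAT, a match to the PBX-HOX motif, 162 bases before the start, between 2 CCAAT boxes read on the other strand at 171 and 117 bases. Hoxb1 is known to maintain its own expression in the hindbrain through PBX-HOX sites. The Hoxa11 promoter held ACGTG 227 bases and CACGT 19 bases before the start. The promoters of Hoxd9 and Hoxa9 held none of these letters. Of the 31 Hox genes 18 had a promoter in the table, with 20 promoters in all. The PBX-HOX motif was in 3 of the 20 (15%), those of Hoxa2, Hoxb1 and Hoxd11, and in 8.85% of all 32851 promoters. The half-site AGGTCA was in 25% of Hox promoters and 16.3% of all, TTTATG in 10% and 11.9%, TATAAA in 10% and 13.6%, CCAAT in 55% and 37.4%, and ACGTG in 30% and 19.6%. The promoters of Hoxd9 and Hoxd10, like those of other neighbours, lie in 1 cluster, and motifs overlapped in places, as in CACGTG, which holds ACGTG on both strands.

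The arrays showed which Hox transcripts were measured above the dim part of the array. The deposited value of a probe set is its MAS5 signal, an intensity scaled so that the mean without the 2% of probe sets at each end was 499.96 on every array. The median signal was 205.7 to 218.3. A probe set was tested where its signal reached the 40th percentile of its array, between 131.5 and 146.4, in at least 2 of the 7 embryos, which left 27 Hox probe sets of 23 genes among 14554 tested in all. By cluster, 9 of 12 were tested in Hoxa, 8 of 10 in Hoxb, 6 of 8 in Hoxc and 4 of 7 in Hoxd. By position, 6 of 7 anterior, 12 of 16 central and 9 of 14 posterior members were tested. Hoxb1 and Hoxc5 passed on 5 arrays, 1 Hoxa4 probe set on 4 and Hoxd11 on 3, and the other 23 on all 7. Hoxb1 passed on the arrays of the 5 exposed embryos only, since both controls lay below the 40th percentile.

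**Figure D1:**
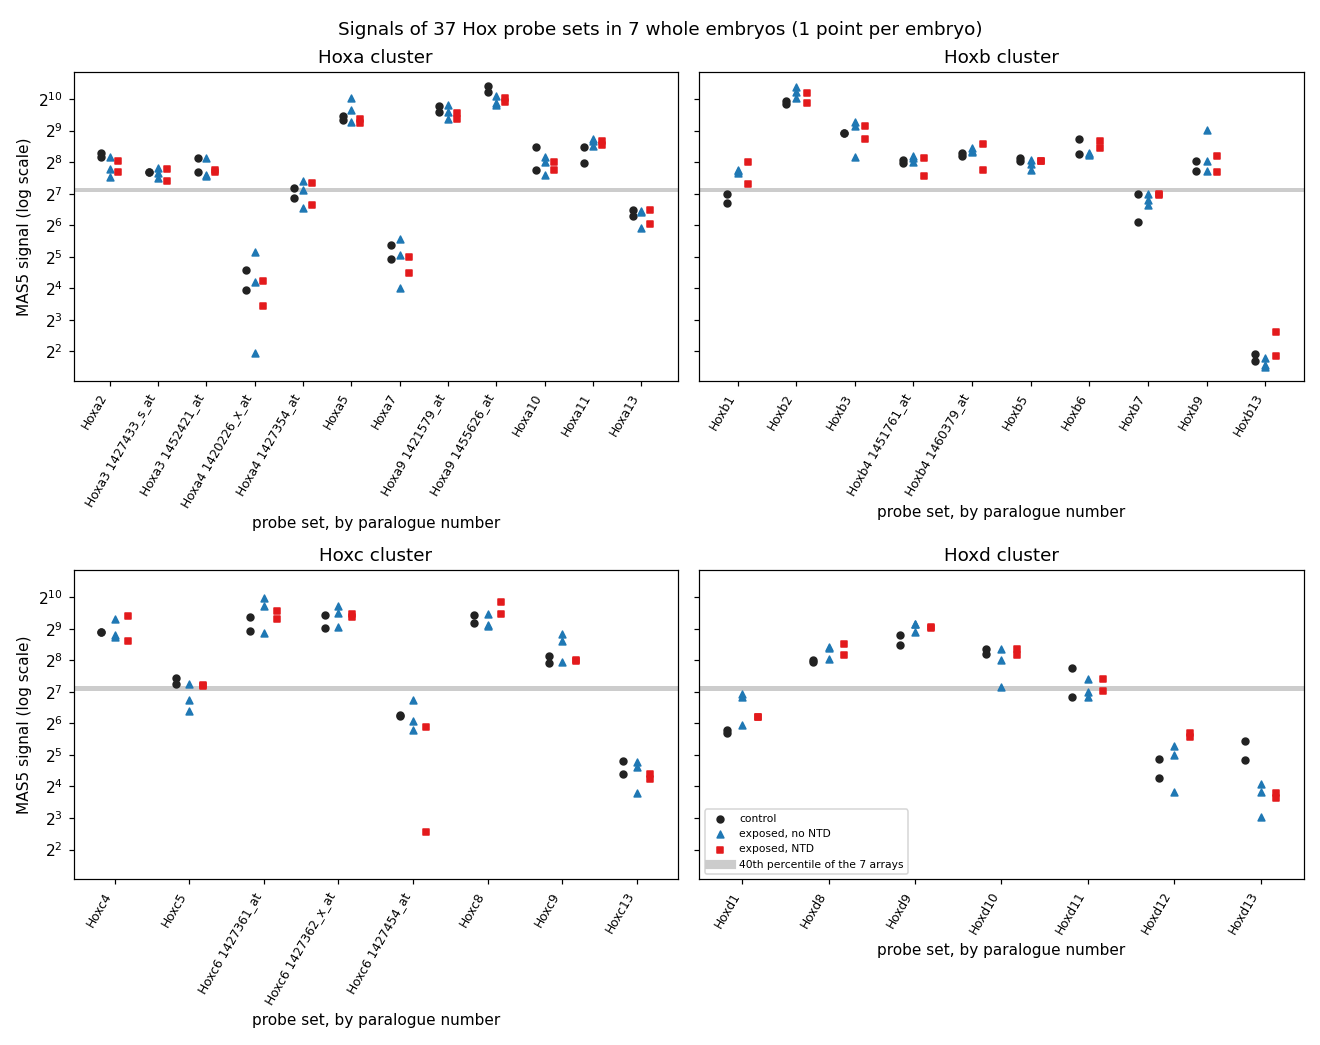
MAS5 signal (vertical axis, log scale) of each of the 37 Hox probe sets in the 7 embryos, by cluster and paralogue number, with 1 point per embryo and the range of the 40th percentiles as a grey band. Hoxb2, Hoxa5, Hoxa9, Hoxc8 and 2 of the 3 Hoxc6 probe sets lay well above the band in all embryos, while Hoxb13, Hoxd13, Hoxc13 and Hoxa7 lay below it in all, and levels of different probe sets are not comparable with each other.

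The 8 genes with no tested probe set were Hoxa7, Hoxa13, Hoxb7, Hoxb13, Hoxc13, Hoxd1, Hoxd12 and Hoxd13, and 5 of them are posterior genes. Hoxd13, which shapes digits and genitalia, had signals of 28.4 and 43.1 in controls 1 and 2, 14.2, 17.0 and 8.11 in the exposed embryos without NTD, numbered 1 to 3, and 12.4 and 13.8 in those with NTD, numbered 1 and 2. All exposed embryos lay below both controls, at levels far under the 40th percentile. Hoxd1, which acts in sensory neurons, had 54.9 and 52.2 in the controls, 115, 121 and 61.4 in exposed embryos without NTD, and 74.4 and 73.8 in those with NTD. The exposed embryos were all above both controls, again in the dim range. Hoxb13, expressed in the tail, had 2.83 to 6.17 in the 7 embryos, and Hoxa13 59.8 to 89.6. Among other untested members, Hoxa7 had 16.2 to 47.0, Hoxb7 69.2 to 127, Hoxc13 13.8 to 28.0 and Hoxd12 14.2 to 52.4. The dim probe sets of Hoxa4 and Hoxc6 had 3.89 to 35.9 and 5.88 to 106.

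Between exposed and control embryos 0 of the 27 tested Hox probe sets were called at an adjusted p under 0.05 with limma, against 0.172% of all tested probe sets. At an unadjusted p under 0.05, 4 of 27 (14.8%) passed in either direction, against a background of 16.2%. Of these 3 were higher in exposed embryos (11.1%, background 7.63%) and 1 was lower (3.7%, background 8.52%). All exposed embryos lay above both controls for 4 tested members, Hoxb1, Hoxa11, Hoxd8 and Hoxd9 (14.8%, background 11.4%), and below both for 1, a Hoxa9 probe set (3.7%, background 13.4%). These shares are of probe sets that passed the filter on dim signals, and Hoxb1, counted among the higher ones, passed it through the exposed embryos alone. A whole embryo is a mixture of tissues, so that fewer cells of a type and less RNA per cell cannot be told apart.

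The range of change was narrow. The log2 fold change of exposed over control embryos ran from -0.39 for Hoxc5 to 0.84 for Hoxb1, with a median of -0.01 over the 27, against 0.00 over all tested probe sets. The median size of the log2 fold change was 0.19 in the Hox genes and 0.19 in all tested probe sets, and 1 of 27 (3.7%) was beyond 0.5 in size, against 11.6% of all. The 95% interval lay within 2-fold in either direction for 25 of 27 (92.6%), against 86.4% of all tested probe sets, and the exceptions were Hoxb1 and Hoxc5. Hoxc5 had 153 and 174 in controls, 153, 108 and 83.8 in exposed embryos without NTD, and 146 and 149 in those with NTD. Its interval, -1.03 to 0.25 on the log2 scale, reached lowest of the tested members, and its log2 fold change was -0.24 without exposed embryo 3 without NTD. Across the 7 embryos, irrespective of group, the highest signal was 1.30 times the lowest for Hoxb5 and 2.53 times for Hoxb9, with a median of 1.69.

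**Figure D2:**
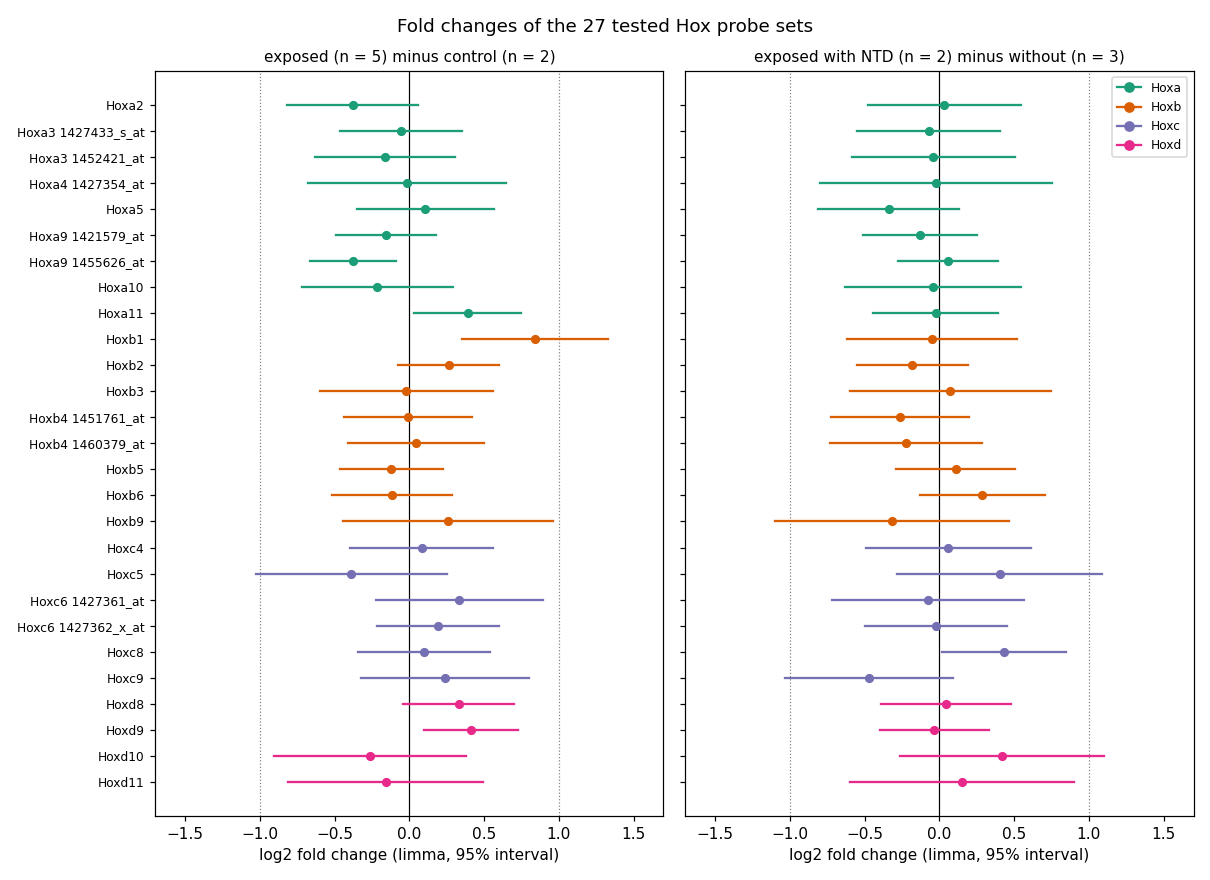
Log2 fold change with its 95% interval from limma for the 27 tested Hox probe sets (rows, coloured by cluster), for exposed (n = 5) minus control (n = 2) embryos on the left and for exposed embryos with NTD (n = 2) minus those without (n = 3) on the right, with dotted lines at 2-fold. On the left the intervals of Hoxb1, Hoxd9, Hoxa11 and a Hoxa9 probe set do not reach 0, and on the right only that of Hoxc8, none of them called after adjustment.

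Among the anterior genes, the hindbrain genes Hoxb1 and Hoxb2 had higher means in exposed embryos and Hoxa2 a lower one. Hoxb1, which gives the facial motor segment of the hindbrain its identity, had signals of 127 and 105 in controls 1 and 2, 216, 210.5 and 201 in the exposed embryos without NTD, and 159.7 and 255 in those with NTD. The groups did not overlap, and the highest and the lowest exposed embryo were the pair with NTD. The control mean was 116 ± 15.6 (SD, n = 2) and the exposed mean 208 ± 33.9 (SD, n = 5), a ratio of 1.80. The log2 fold change was 0.84 with a standard error of 0.22 and a 95% interval of 0.35 to 1.33, and limma's adjusted p was 0.117. Over its 18 alternatives the adjusted p ran from 0.0497 to 0.506, and Hoxb1 was called under 1 of them, array quality weights. The log2 fold change was 0.86 for exposed embryos without NTD and 0.81 for those with NTD, each against the controls. Without exposed embryo 1 without NTD it was 0.82. With no filter on dim signals the adjusted p was 0.185. A screen for more than 1.5-fold between means with an unadjusted p under 0.05 in the methods' t-test and in Cyber-T, a test that borrows the spread of probe sets of like signal, passed Hoxb1 alone of the 27 (3.7%, background 4.34%). The screen leaves out the false discovery rate that the study set for its test of unequal variances. Adjusted over all tested probe sets, the p of Hoxb1 was 0.221 in the methods' t-test and 0.0509 in Cyber-T. Both controls lay under the 40th percentile and Hoxb1 was tested through the exposed embryos alone, so that this filter favoured a difference.

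Hoxb2, a target of HOXB1 in the hindbrain and the brightest probe set of its cluster, had 912 and 977 in controls, 1203, 1043 and 1346 in exposed embryos without NTD, and 931 and 1183 in those with NTD. Exposed embryo 1 with NTD lay between the controls and the other 4 exposed embryos above them, a log2 fold change of 0.26 with a standard error of 0.15 (limma adjusted p = 0.420). Hoxa2, which patterns the hindbrain and the second branchial arch, had 284 and 314 in controls and 187 to 289 in exposed embryos, with 1 exposed embryo between the controls. Its log2 fold change was -0.38 with a standard error of 0.20 (limma adjusted p = 0.369). The probe sets of Hoxa3 and Hoxb3, which act in the pharyngeal arches, had log2 fold changes of -0.06, -0.16 and -0.02. Hoxb3 had nearly equal signals in the controls, 484 and 483, and 287 to 623 in exposed embryos, so that its exposed embryos lay on both sides.

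Among the central genes 7 of 12 probe sets were higher in exposed embryos and 5 lower, with a median log2 fold change of 0.06. Hoxd8 had 259 and 246 in controls, 263, 337 and 345 in exposed embryos without NTD, and 363 and 287 in those with NTD. All exposed embryos lay above both controls, exposed embryo 1 without NTD by a small margin, and the log2 fold change was 0.33 with a standard error of 0.17 (limma adjusted p = 0.361). Hoxc6, a gene of the thorax and of forelimb motor neurons, had 492 and 660.3 in controls, 843, 471 and 997 in exposed embryos without NTD, and 640 and 758 in those with NTD on its brightest probe set. The exposed embryos without NTD held both the highest and the lowest signals, and the log2 fold change was 0.33 with a standard error of 0.25 (limma adjusted p = 0.541). It was 0.12 without control 1, 0.55 without control 2 and 0.22 without exposed embryo 3 without NTD. The other tested Hoxc6 probe set gave 0.19. Hoxc8, of brachial motor neurons and thoracic vertebrae, had 691 and 576 in controls, 547, 711 and 554 in exposed embryos without NTD, and 915 and 715 in those with NTD. Its exposed embryos lay on both sides of the controls, with a log2 fold change of 0.10 and a standard error of 0.20 (limma adjusted p = 0.847). The value was -0.073 without the embryos with NTD, -0.032 without control 2 and -0.0099 without exposed embryo 1 with NTD, and 0.23, 0.18 and 0.17 without control 1 and without exposed embryos 1 and 3 without NTD.

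Hoxa5, which acts in the lung and the neck vertebrae, had 647 and 709.6 in controls and 604 to 1047 in exposed embryos, with the highest in exposed embryo 1 without NTD. The probe sets of Hoxb4, Hoxb5, Hoxb6, Hoxc4 and the tested one of Hoxa4 had log2 fold changes between -0.12 and 0.08, and their groups overlapped.

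Among the posterior genes 4 of 9 probe sets were higher in exposed embryos and 5 lower, with a median of -0.16. Hoxd9, of the limbs and the lumbosacral trunk, had 447 and 360.4 in controls, 572, 480.1 and 569.6 in exposed embryos without NTD, and 523 and 530.2 in those with NTD. The lowest exposed embryo lay above the higher control. The control mean was 404 ± 61.1 (SD, n = 2) and the exposed mean 535 ± 37.8 (SD, n = 5), which gave a log2 fold change of 0.41 with a 95% interval of 0.10 to 0.72 (limma adjusted p = 0.196). It was 0.26 without control 2. Hoxa11, which shapes the forearm and the kidney together with its paralogues, had 254 and 359.6 in controls, 429, 365 and 404 in exposed embryos without NTD, and 409 and 375 in those with NTD. The lowest exposed embryo lay just above control 2, and the controls differed from each other more than the exposed embryos did. The log2 fold change was 0.39 with a 95% interval of 0.03 to 0.75 (limma adjusted p = 0.273). It was 0.14 without control 1 and 0.64 without control 2. The antisense transcript Hoxa11os, which is transcribed across the same locus, had 135 and 105 in controls and 78.6 to 121 in exposed embryos and was too dim to test.

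Hoxa9, known for its part in blood stem cells, had the brightest probe set of the Hoxa cluster, with 1367 and 1199 in controls, 889.6, 1089 and 941 in exposed embryos without NTD, and 967 and 1049.9 in those with NTD. All exposed embryos lay below both controls. The control mean was 1283 ± 119 (SD, n = 2) and the exposed mean 987 ± 81.0 (SD, n = 5), which gave a log2 fold change of -0.38 with a 95% interval of -0.67 to -0.09 (limma adjusted p = 0.195). With Cyber-T adjusted over all tested probe sets its p was 0.0305, a test that called 8.96% of all probe sets. The second probe set of Hoxa9 had 777 and 887 in controls, 778, 656 and 903 in exposed embryos without NTD, and 667 and 748 in those with NTD. There the groups overlapped, and the log2 fold change was -0.16 with a standard error of 0.15 (limma adjusted p = 0.651), and -0.25 without control 1 and -0.060 without control 2. Of the other posterior members, Hoxa10, Hoxd10 and Hoxd11 had log2 fold changes of -0.22, -0.26 and -0.16, and Hoxb9 and Hoxc9 of 0.26 and 0.24. Hoxb9 had 522 in exposed embryo 1 without NTD and 207 to 292 in the other 6 embryos.

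**Figure D3:**
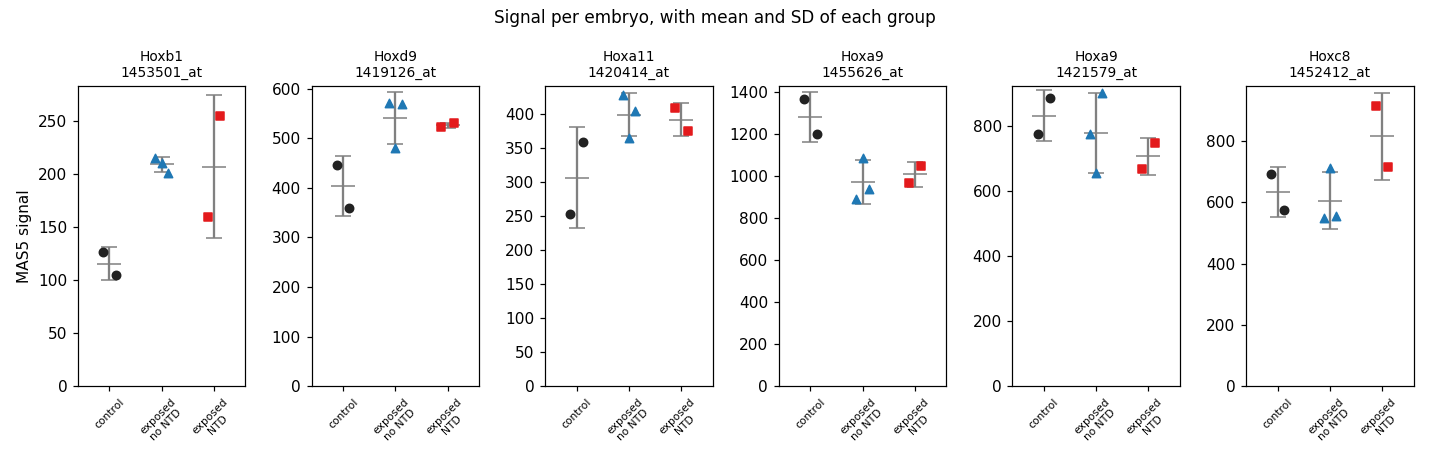
MAS5 signal (vertical axes, from 0) of 6 Hox probe sets in each embryo, with the mean and SD of the control embryos (n = 2), exposed embryos without NTD (n = 3) and exposed embryos with NTD (n = 2) as grey bars. Every exposed embryo lies above the controls for Hoxb1, Hoxd9 and Hoxa11 and below them for the first Hoxa9 panel, while the other Hoxa9 panel overlaps and Hoxc8 is higher in the pair with NTD.

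Each cluster held tested probe sets that were higher and others that were lower in exposed embryos. In Hoxa 7 of 9 probe sets were lower in exposed embryos, with a median log2 fold change of -0.16, and Hoxa11 and Hoxa5 were the exceptions. In Hoxb 4 were higher and 4 lower, with a median of 0.02. In Hoxc 5 of 6 were higher, with a median of 0.15, and Hoxc5 was the exception. In Hoxd 2 were higher and 2 lower, with a median of 0.08. These are counts of signs, with no test of a cluster as a whole. By exposed embryo, the median difference of the 27 probe sets from the mean of the controls was 0.06, -0.17 and 0.11 for those without NTD and -0.02 and -0.05 for those with NTD, in the order of their numbers and on the log2 scale. Exposed embryo 2 without NTD was lowest, with 13 of 27 probe sets below both controls (48.1%, against 39.2% of all tested probe sets) and 10 above both.

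**Figure D4:**
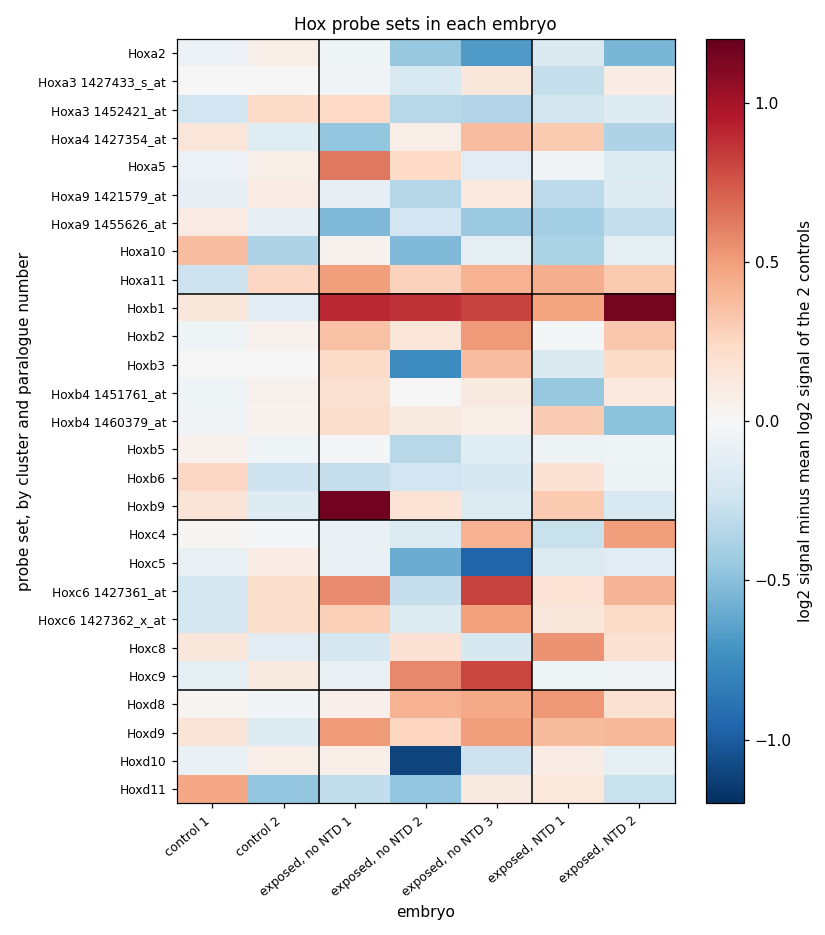
Log2 signal minus the mean log2 signal of the 2 controls (colour) for the 27 tested Hox probe sets (rows, by cluster and paralogue number) in each of the 7 embryos (columns), with the groups and clusters divided by black lines. The row of Hoxb1 is red in all 5 exposed embryos and the lower Hoxa9 row is blue in all 5, while most other rows hold both colours and exposed embryo 2 without NTD has the lowest median, -0.17.

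The presence of an NTD among exposed embryos was tested in the same way. Of the 27 Hox probe sets 0 were called, as of all tested probe sets (0%), and the smallest adjusted p among them was 0.999. At an unadjusted p under 0.05, 1 of 27 passed (3.7%, background 3.02%). It was Hoxc8, with means of 604 ± 92.9 (SD, n = 3) without NTD and 815 ± 142 (SD, n = 2) with NTD. The log2 fold change was 0.43 with a 95% interval of 0.02 to 0.84, and exposed embryo 2 without NTD, at 711, lay close to exposed embryo 2 with NTD, at 715. The log2 fold change was 0.25 without exposed embryo 1 with NTD. The fold changes ran from -0.47 for Hoxc9 to 0.43 for Hoxc8, with a median of -0.02. Hoxc9 had 246, 391 and 457 in exposed embryos without NTD and 253 and 255 in those with NTD, so that the groups overlapped. Hoxb1, Hoxd9, Hoxa11 and both Hoxa9 probe sets differed by -0.05, -0.03, -0.02, 0.06 and -0.13 between the groups with and without NTD.

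Probe sets annotated to 2 Hox genes at once were outside the rule. A probe set of Hoxd3 and Hoxd4 had a log2 fold change of -0.20 between exposed and control embryos, another of the same genes 0.40, and one of Hoxb7 and Hoxb8 0.50, and none was called. The second Hoxd3 and Hoxd4 probe set had 529, 474 and 429 in exposed embryos without NTD and 822 and 595 in those with NTD, a log2 fold change of 0.56 between them (limma adjusted p = 0.999). The Hoxb7 and Hoxb8 probe set had 213 and 237 in controls and 246 to 505 in exposed embryos.

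None of the genes listed as partners or regulators of Hox genes was called with limma as described. Each gene is given here by its brightest tested probe set. Of those named below, Ring1, Cyp26a1, Zbtb16 and Meox1 were called with array quality weights and with Cyber-T adjusted over all tested probe sets, and Meox1 also with an offset of 50 added to the signal. Of the cofactors that bind DNA with HOX proteins 7 were tested, 3 higher and 4 lower in exposed embryos. Pknox1 had 246 and 229.5 in controls and 157 to 223 in the exposed group, which gave -0.38 as log2 fold change, while Pknox2 gave -0.43 and Meis3 0.39. For these 3 of the 7 tested cofactors the exposed embryos did not overlap the controls (background 11.4% higher and 13.4% lower). They were picked as the 3 of smallest p, and Pbx2, Pbx3, Meis1 and Meis2 overlapped. The second Pknox1 probe set gave -0.25, with overlap. Of the regulators upstream of Hox genes 8 were tested, 7 of them higher, with a median of 0.30. Among the higher ones Gdf11, like Zbtb16 below, had both controls under the 40th percentile. Both genes entered this count through exposed embryos alone, so that the filter favoured higher values. At an unadjusted p under 0.05, 2 of the 8 were higher and 0 lower, Cyp26a1 and Zbtb16, against 7.63% and 8.52% of all tested probe sets. Cyp26a1, the enzyme that degrades retinoic acid, had 227 and 226 in controls, 327, 449 and 350.3 in exposed embryos without NTD, and 358 and 343 in those with NTD. The controls were alike and lay below every exposed embryo, a log2 fold change of 0.68 with a 95% interval of 0.33 to 1.03 (limma adjusted p = 0.0974). Zbtb16, a zinc finger repressor that acts on Hox genes in the limb, had 120 and 71.7 in controls, both under the 40th percentile, and 173 to 399 in exposed embryos, so that it was tested through the exposed embryos alone. Its log2 fold change was 1.37 (limma adjusted p = 0.0979), but -0.51 on its other probe set. The retinoic acid receptor Rara had 0.38, and the probe sets of Cdx1, Cdx2, Cdx4, Fgf8 and Wnt3a were too dim to test.

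Of the Polycomb genes 13 were tested, 5 higher and 8 lower, with a median of -0.07. Ring1 had 219 and 149.99 in controls, 348, 321 and 406 in exposed embryos without NTD, and 392 and 316 in those with NTD. The groups did not overlap, and the log2 fold change was 0.97 (limma adjusted p = 0.0619). It ran from 0.69 to 1.24 over the alternatives, and the unadjusted p in the methods' t-test was 0.156. Pcgf2 had 0.72 (limma adjusted p = 0.293) with overlap, and 1.16 without control 1 and 0.28 without control 2. Phc2 had -0.30 on its brightest probe set and 0.05 on the other. Of 6 Trithorax genes, which maintain active Hox transcription, 3 were higher and 3 lower. Kmt2a had 0.43 and 0.06 on its probe sets, Ash2l -0.31 and -0.89, and Kdm6a 0.35 on both. The second Ash2l probe set was dim and passed the filter on 2 arrays. Its groups overlapped, and its standard error was 0.52. The brighter Kdm6a probe set gave 0.19 without exposed embryo 1 without NTD and 0.58 without exposed embryo 2 with NTD. Its signals were 401 and 371 in controls, 777, 416 and 524 in exposed embryos without NTD, and 657 and 260 in those with NTD. They are set beside transcripts of the sex chromosomes below. Of 5 tested homeobox genes related to the clusters but outside them, Meox1 of the somites had the smallest p, with 605 and 605 in controls and 913 to 1099.8 in the exposed group, and a log2 fold change of 0.72 (limma adjusted p = 0.0597). Evx2, next to the Hoxd cluster, had 0.42, and 0.11 without control 1 and 0.73 without control 2. Meox2 had -0.26, and -0.085 without exposed embryo 1 without NTD.

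Tissue markers were measured beside the Hox genes, and the sums of some lists differed between the groups. In the tail bud and presomitic mesoderm, where posterior Hox genes start, 10 listed markers were on the array, and their summed signal was 1557.4 to 1642.4 in controls and 1881.4 to 2158 in exposed embryos. Of 5 tested markers 4 were higher and 1 was called (background 0.172%), Hes7, a gene of the somite clock (limma adjusted p = 0.0329). It had 25.2 and 35.2 in controls and 118 to 211 in exposed embryos and passed the filter on 3 arrays, all of exposed embryos, so that its log2 difference of 2.48 is against controls in the dim range. The list shares Cyp26a1, Cdx2, Cdx4, Fgf8 and Wnt3a with the upstream regulators. The markers too dim to test all overlapped between the groups. Cdx2 lay at 6.48 to 25.1 in controls and 22.0 to 131.8 in exposed embryos, and Cdx4 at 40.1 to 54.8 and 38.5 to 46.9. Of the tested markers, Tbx6, Lfng and Dll3 overlapped, and Dll3 had a log2 fold change of -0.08. Tbx6, like Hes7, passed the filter on 3 arrays, all of exposed embryos, so that the filter favoured both in the count of higher markers. Hes7 and Cyp26a1 did not overlap. The 6 markers of primitive red blood cells summed to 52066 to 54326 in controls and 64485 to 83689 in exposed embryos. All 6 were higher at an unadjusted p under 0.05 (background 7.63%) and none was called. The 5 branchial arch markers summed to 997.8 to 1066.1 and 1342 to 1489.4, and the 11 limb bud markers to 2087.6 to 2383 and 2316.1 to 2874.4. Of the 4 tested branchial arch markers 3 were higher at an unadjusted p under 0.05 (background 7.63%) and none was called. The 4 hindbrain markers on the array were too dim to test and summed to 222.12 to 222.52 and 227.91 to 279.63. Somite markers summed to 2630.3 to 2718.2 in controls and 2914.6 to 3259.9 in exposed embryos. Of 7 tested somite markers, however, 2 were higher and 5 lower, with a median log2 fold change of -0.04. Meox1, given above, lay above both controls in every exposed embryo and Myog below both, while the other somite markers overlapped. Sums of heart markers were 9892.9 to 10273 and 10326 to 12199, and of spinal cord markers 1427.2 to 1549.4 and 1470.1 to 1890.4. Those of forebrain and midbrain, which express no Hox genes, were 1517.6 to 1524.5 and 1411.4 to 1988.4, and of the genitourinary ridge 392.05 to 406.08 and 342.99 to 450. Of 4 tested spinal cord markers 3 were higher and 1, Lhx1, was lower at an unadjusted limma p under 0.05 (background 8.52%). Lhx1 lay below both controls in every exposed embryo. The dim, untested Nkx6-1 had 8.96 to 11.4 in controls and 45.1 to 117 in exposed embryos, and the other spinal cord markers overlapped. Markers of yolk sac endoderm and liver summed to 26919 in exposed embryo 1 without NTD and to 1109.8 to 3075 in the other 6 embryos. Transcripts of the sex chromosomes also differed, with Eif2s3y, on the Y chromosome, at 203 to 245 in both controls and exposed embryo 2 with NTD and at 0.549 to 2.76 in the other 4. Xist, of the same list, was at 165 to 256 in the embryos with high Eif2s3y and at 6074 to 7533 in the other 4. This difference and exposure therefore largely coincided, with exposed embryo 2 with NTD as the exception. No source used here gives the embryos' sex. Among the embryos with Eif2s3y at 203 to 245, the controls had the lowest Hoxb1 signals, 127 and 105, and exposed embryo 2 with NTD the highest, 255. The brighter Kdm6a probe set had 260 to 401 in the embryos with that Eif2s3y signal and 416 to 777 in the others. The part of these tissues and of sex in the Hox and Kdm6a values was not tested.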

How the data were processed

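Whole-embryo RNA of 7 mouse embryos was hybridised to 7 one-colour arrays, 1 per embryo. The deposited values are MAS5 signals, linear intensities that the authors computed from the probes and scaled per array. No source used here gives the version of MAS5. Detection calls were left out. No array columns were identical. Symbols came from the array annotation, in which 20380 probe sets other than the 64 array controls had 1 symbol, 691 several and 1555 none. Probe sets with several symbols entered no list.

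Signals below 1 were set to 1 and log2 transformed. The 14554 probe sets that reached the 40th percentile of at least 2 of the 7 arrays were fitted with limma 3.58.1 (trend, statmod 1.5.0, R 4.3.3), 5 exposed against 2 control embryos, and calls were made below an adjusted p of 0.05 (Benjamini-Hochberg over all of them). A second fit, with 3 groups, gave the contrast of exposed embryos with NTD minus those without. Welch's test and Cyber-T (window 101, confidence 10, settings chosen here) were run on the same log2 values as the methods' tests, and their fold was the ratio of mean signals. The number of arrays limits the precision, and the limma step was tested on simulated data.

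The Hox genes, the marker and regulator lists and the tests were chosen with earlier results of these data known. Signals of all 7 embryos are given for members with an unadjusted p under 0.05 in either comparison, for the member of smallest p and the brightest one of each cluster, and for every tested probe set of those with p under 0.05. Values of Hoxa2, Hoxa5, Hoxb3, Hoxc9, Hoxd1, Hoxd8, Hoxd13 and Hes7 were added after they were seen. From each regulator list the 3 genes of smallest p are named.

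Alternatives were quantile normalization, median centring, another floor, an offset, other filters, no trend, array weights, a replicate block, omission of embryos and, chosen after seeing the data, members with 2 Hox symbols. Symbols of all 31 Hox genes matched RefSeq, and promoter sequences are RefSeq's on GRCm38.p6. Figures were drawn with Python 3.11.15, pandas 2.3.3, NumPy 2.4.6 and Matplotlib 3.10.9.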

Additional observations from a re-analysis of the deposited data

Results flagged for a closer look

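Among the 5 exposed embryos, 3 of the 37 Hox probe sets had 1 embryo far from the other 4, by a gap over range above 0.71. Chance alone flags about 1 in 20 such groups. A probe set of Hoxb4 had a signal of 217.4 in exposed embryo 2 with NTD, against 323.6 to 377.5 in the remaining ones. A dim, untested probe set of Hoxc6 had 5.882 in the same embryo and 54.84 to 106.3 in the others. Hoxd10 had 143.0 in exposed embryo 2 without NTD and 260.5 to 329.7 in the others. The other probe set of Hoxb4 had 282 in exposed embryo 2 with NTD, inside the range of the exposed embryos, and the brighter probe sets of Hoxc6 had 758 and 702 there, also inside it.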

How the results depend on the processing

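The count of Hox probe sets called between exposed and control embryos was 0 in the main analysis and 1 under each of 2 alternatives, array quality weights (Hoxb1, adjusted p = 0.0497) and Cyber-T with Benjamini-Hochberg adjustment (the brighter Hoxa9 probe set, adjusted p = 0.0305). It was 0 with each embryo left out in turn. At an unadjusted p under 0.05 the count was 4, with 2 to 5 when 1 embryo was left out, 2 of them without control 1. Welch's test passed 3 Hox probe sets unadjusted (18.2% of all tested) and 0 after adjustment, and Cyber-T passed 5 unadjusted (25.2% of all tested). The median log2 fold change of -0.01 was 0.10 with a filter at the 60th percentile, which left 16 Hox probe sets, and -0.04 to 0.09 when 1 embryo was left out. For embryos with against without NTD, the unadjusted count of 1 was 2 with no filter, 2 with array quality weights, 2 with a replicate block, 2 with members of 2 Hox symbols added after seeing the data, and 0 with no trend. It was 0 without either control, 2 without exposed embryo 1 without NTD, and so between 0 and 2 when 1 embryo was left out. The difference of Hoxc8 between exposed and control embryos turned from 0.10 to -0.073 without the embryos with NTD, to -0.032 without control 2 and to -0.0099 without exposed embryo 1 with NTD, within a range of -0.032 to 0.23 when 1 embryo was left out. The cause of these changes was not tested.

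With the replicate number as a block, 0 Hox probe sets were called, 3 passed unadjusted and the median was -0.04. Deviations from the group means of embryos with the same number had correlations of -0.25 to 0.03 over the tested probe sets. In a group of 2 embryos these deviations mirror each other, so that the check cannot settle whether the numbers pair the samples.

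The number of control arrays, 2, limits these comparisons, and dim Hox transcripts near the 40th percentile, Hoxb1 among them, are measured with little signal over background.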
